A study of Mus musculus with 113 samples.

Results

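Expression of 10 Kruppel-like factor (KLF) genes, Klf2, Klf3, Klf4, Klf5, Klf6, Klf9, Klf10, Klf13, Klf16 and Klf17, was followed in mouse embryos from the 2-cell (2C) to the 8-cell (8C) stage. The genes were taken by name from the 24006 genes listed in each of 92 RNA-seq libraries. The comparisons that bear on them were the stage of the embryo, the combination of nuclear receptors knocked down, and base editing of Nr5a2.

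KLFs are transcription factors that bind GC-rich and CACCC-type DNA elements through zinc fingers at their C terminus. Klf2, Klf4 and Klf5 are known as activators that sustain naive pluripotency in mouse embryonic stem cells, and Klf17 is a divergent member known from oocytes and early embryos. Klf3 recruits the CtBP corepressors, Klf9, Klf10, Klf13 and Klf16 carry a Sin3-interacting repression domain, and Klf6 is known as an early-response gene.

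The study used small interfering RNA (siRNA) knockdown (KD) to ask what depends on the receptor genes Nr5a2, Rarg, Nr1h3 and Nr2c2 in early embryos, and a base editor to mutate Nr5a2 by another route. The labels of these libraries give no strain, and the methods give C57BL/6N females mated with PWK/PhJ males for preimplantation embryos. KD libraries were pools of zona-free embryos, with 2 pools in each group, whereas each base-editing library held 1 embryo.

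All embryos were labelled wild type. At the 4C and 8C stages, all 4 receptors were knocked down together (4KD) with 5 µM of siRNA to each gene and compared with 20 µM of control siRNA (NC). At 8C, 3 of the 4 were knocked down in each combination (3KD, 5 µM each, NC at 15 µM), and each was knocked down alone (5 µM, NC at 5 µM). At 2C, Nr5a2 was knocked down alone with 20 µM of siRNA beside 20 µM of NC. Base-editing embryos received base editor (BE) mRNA alone (8 embryos at each of 2C and 8C), single guide RNA (sgRNA) alone (8 at each) or both (14 at each), every component at 100 ng/µl. Embryos with residual transcript after siRNA cannot be separated within a pool, and FPKM values do not show whether an embryo that received BE and sgRNA was edited, or in how many of its cells. The labels do not say whether the 2 pools of a group came from separate collections, so p-values measure the spread between these samples only.

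Levels are in FPKM, fragments scaled to library size and per kilobase of transcript, so that members can be compared with each other. The FPKM of a library summed to 83392 to 556462, and read depth was unknown. Of 9 embryo markers, Dppa3, Pou5f1 and Cdh1 reached 1 FPKM in 92 of 92 libraries and the other 6 did so in 56 to 89. Of 10 cumulus cell markers, 7 were listed at 0 in every 4KD pool, likewise in the 3KD and in the single KD pools, while single 2C embryos reached 27.2 FPKM for 1 of them and single 8C embryos 0.705 FPKM. The column names of 3 libraries gave the 4C stage against their labels: replicate 8 of the 2C sgRNA group and replicates 13 and 14 of the 8C BE + sgRNA group. Nr5a2 itself, which checks the siRNA labels, measured 9.65 to 12.8 FPKM in the 8C Nr5a2 KD pools against 48.8 to 50.2 FPKM in NC.

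In mm9 gene models, Klf4 (chr4:55540013-55545347) and Klf17 (chr4:117430441-117438253) lay on the minus strand of the same chromosome. Klf5 was at chr14:99697910-99712624 on the plus strand and Klf13 at chr7:71031237-71083801 on the minus strand. Each value covered a whole gene, so exons and isoforms were not separated.

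Between the 2C and 8C stages the leading member changed from Klf17 to Klf5. Klf17 had the highest FPKM of the 10 genes in 34 of 34 libraries labelled 2C and in 4 of 4 at 4C, whereas Klf5 led in 15 of 16 single 8C control embryos (BE alone or sgRNA alone). In single control embryos Klf17 ranged from 38.3 to 227 FPKM at 2C (median 92.6, n = 16) and from 9.46 to 95.1 FPKM at 8C (median 33.9, n = 16). Klf5 ranged from 7.69 to 51.7 FPKM at 2C (median 18.5) and from 9.06 to 335 FPKM at 8C (median 144). The ranges of both genes overlapped between the stages, and the lowest 8C value of Klf5 belonged to sgRNA replicate 7, the exception in which Klf17 led with 88.2 FPKM. The FPKM of that library summed to 207918, the lowest of the 16 single 8C control embryos.

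**Figure D1:**
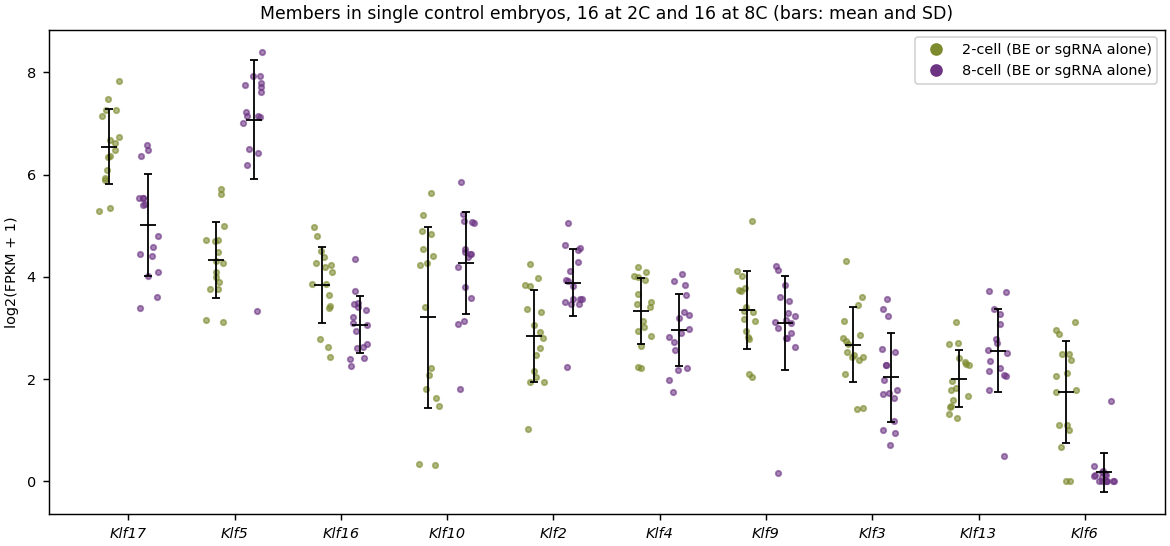
Levels of the 10 members, on a log2(FPKM + 1) axis, in single control embryos at 2C (16 embryos, green) and 8C (16 embryos, purple); points are embryos and bars the mean with SD. Klf17 has the highest median at 2C (92.6 FPKM) and Klf5 at 8C (144 FPKM).

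Fold changes are differences of log2(FPKM + 1) with their standard error, tested with limma, and a gene was called where the Benjamini-Hochberg adjusted p over all genes tested was under 0.05. Adding 1 understates the change of low genes. Between the stages 8 of 10 members were called, 4 in each direction, where 72.6% of 12824 genes were called, so a call was the usual outcome for a gene. Klf5 rose at 8C by 2.74 ± 0.34 (adjusted p = 1.14e-08) and Klf2 by 1.04 ± 0.29 (adjusted p = 0.00162). The TGF-beta-induced Klf10 rose by 1.06 ± 0.46 (adjusted p = 0.0390) and Klf13 by 0.54 ± 0.24 (adjusted p = 0.0447).

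The other 4 called members fell from 2C to 8C. Klf6 fell by 1.57 ± 0.27 (adjusted p = 3.38e-06), from a median of 2.80 FPKM to 0.0684 FPKM. Klf17 fell by 1.53 ± 0.30 (adjusted p = 2.86e-05), Klf16 fell by 0.77 ± 0.24 (adjusted p = 0.00516) and Klf3 fell by 0.64 ± 0.27 (adjusted p = 0.0344). Klf4 (adjusted p = 0.179) had medians of 9.85 FPKM at 2C and 6.67 FPKM at 8C, and Klf9 (adjusted p = 0.433) of 9.02 and 7.80 FPKM. The median over all genes tested was -0.31. With library-number run added to the model, which also left out the library with a 4C column name, 5 of 10 were called. Klf3, Klf10 and Klf13 were not, and the share of all genes called in that fit is not given here. The calls of Klf10 and Klf13 were also lost with median-ratio scaling (adjusted p = 0.111 and 0.246) and without the libraries with a 4C column name (0.0747 and 0.0669), and that of Klf3 with quantile normalization (log2 difference -0.25, adjusted p = 0.433). Transcripts of 9 oocyte-deposited genes summed to 776 to 3793 FPKM in 2C embryos with BE alone and 62.2 to 3146 FPKM with sgRNA alone. At 8C these sums were 17.0 to 66.6 and 16.3 to 143 FPKM. The 62.2 FPKM was that of 2C sgRNA replicate 8, with the 4C column name, and the next lowest 2C sum was 338 FPKM. The part of these transcripts in the differences was not tested, and fewer cells with a transcript and less of it per cell cannot be told apart.

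In the NC pools of the 4KD experiment, Klf17 was lower and Klf5 and Klf13 higher at 8C than at 4C, although none was called. Klf17 measured 130.2 and 127 FPKM at 4C and 35.7 and 38.6 FPKM at 8C. Klf5 measured 40.6 and 13.4 FPKM at 4C and 71.8 and 75.6 FPKM at 8C, and Klf13 8.97 and 1.56 and 11.7 and 18.0 FPKM. None of the 3 genes overlapped between the stages. With 2 pools a group, values can separate without a true difference, and the share of all genes that did so was not computed, here or below. The log2 differences were -1.77 ± 0.39 for Klf17, 1.61 ± 0.52 for Klf5 and 1.62 ± 0.68 for Klf13 (unadjusted p = 0.00144, 0.0124 and 0.0408). Under limma 0 of 9 members were called beside 0.0% of 10476 genes, and 3 of 9 had an unadjusted p under 0.05 beside 7.41%. With the replicate number within each stage as a block, 0 of 9 members were called beside 10 of 10476 genes. Klf6 was not tested in the 4C and 8C comparisons, where no group mean reached 1 FPKM.

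Among the KDs, members were called after KD of Nr5a2 alone at 8C, where Klf5, Klf13 and Klf4 fell. Klf5 measured 327 and 247 FPKM in the NC pools and 46.7 and 26.3 FPKM in the Nr5a2 KD pools. Klf13 measured 4.99 and 5.02 FPKM in NC and 0.0546 FPKM in the first KD pool, and was listed at 0 in the second. Klf4, one of the reprogramming factors, measured 5.40 and 8.81 FPKM in NC and 1.09 and 0.675 FPKM after KD. For each of the 3 genes both KD pools lay below both NC pools, a separation whose share over all genes was not computed.

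Klf5 fell by 2.98 ± 0.35 on the log2 scale (adjusted p = 0.00243), Klf13 fell by 2.55 ± 0.44 (adjusted p = 0.0121) and Klf4 fell by 2.08 ± 0.40 (adjusted p = 0.0200). Thus 3 of 9 members tested were called, all lower, beside 2.75% of 10163 genes, of which 243 were lower and 36 higher. The median change was -0.53 over the 9 members and -0.22 over all genes. With a pseudocount of 0.1 the log2 change of Klf13 was -5.36. Leaving out any pool of the comparison lost some or all of the 3 calls. Such a fit holds a single library in a group, so only effect sizes are given. The log2 change was then -3.38 to -2.58 for Klf5, -2.59 to -2.51 for Klf13 and -2.39 to -1.77 for Klf4. The share of all genes called in these fits is not given here.

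Klf17 lay on the other side. It measured 26.9 and 46.5 FPKM in NC and 192 and 127 FPKM after Nr5a2 KD, without overlap. The log2 difference of 2.11 ± 0.79 was not called with all 5 groups in the fit (adjusted p = 0.184). It was called by limma with only the 2 groups (adjusted p = 0.0415, and 0.0415 to 0.553 over all alternatives). The share of all genes called in that fit of 2 groups is not given here. Klf10 measured 19.3 and 21.2 FPKM in NC and 6.62 and 8.23 FPKM after KD, also without overlap, a difference of -1.34 ± 0.42 (adjusted p = 0.124).

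The other members tested were less clear. The corepressor-recruiting Klf3 measured 3.01 and 4.61 FPKM in NC and 14.6 and 5.29 FPKM after KD, a difference of 1.06 ± 0.58 (adjusted p = 0.372). Klf2 measured 45.4 and 51.9 FPKM in NC and 47.9 and 58.1 FPKM after KD (95% interval of the difference -0.77 to 1.01). Klf9 (9.74 and 12.2 against 9.96 and 5.16 FPKM) and Klf16 (5.32 and 5.76 against 8.03 and 3.74 FPKM) overlapped between the groups. Summed oocyte-deposited transcripts were 87.7 and 136 FPKM in the KD pools and 36.2 and 50.3 FPKM in NC, and their part in the Klf17 values was not tested.

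**Figure D2:**
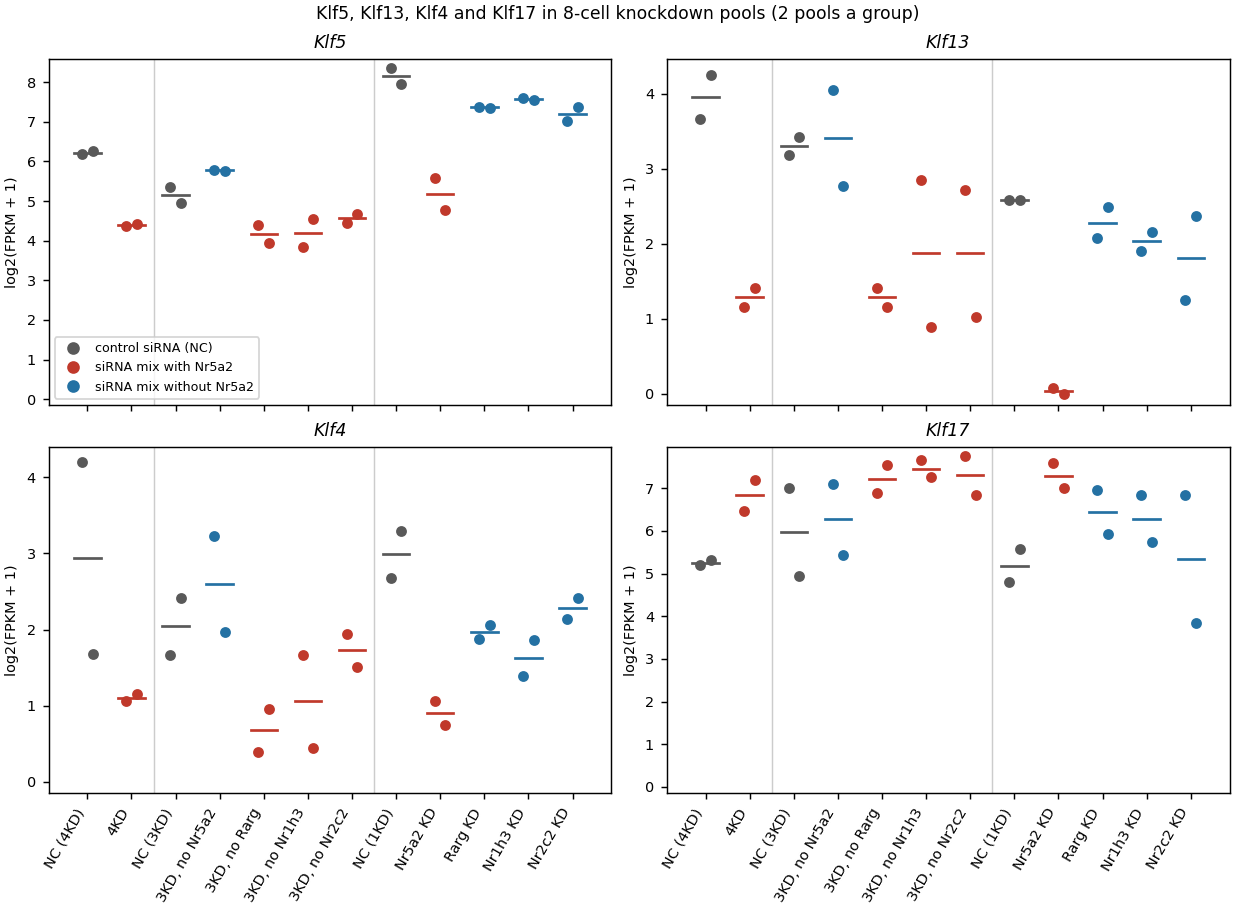
Levels of Klf5, Klf13, Klf4 and Klf17, on a log2(FPKM + 1) axis, in the 24 pools of 8C embryos of the 4KD, 3KD and single KD experiments; points are pools, horizontal lines group means, and grey lines separate the experiments. Over the 10 pools with Nr5a2 siRNA (red), Klf5 lies at 13.4 to 46.7 FPKM and Klf17 at 87.5 to 216 FPKM, against 30.2 to 327 and 13.2 to 135 FPKM over the 14 pools without it (grey NC and blue other siRNA).

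The sequences upstream of 3 of these genes are shown because Klf4 and Klf13 fell after Nr5a2 KD while Klf17 stood higher. RefSeq promoter windows on the GRCm38.p6 build were matched for 7 of the 10 members, all but Klf5, Klf10 and Klf16. The 250 bases before each annotated start are printed 5′ to 3′ on the strand of the gene. Capitals mark GC boxes (GGGCGG) and CACCC boxes (CACCC), on either strand and able to share bases, in Klf4 and Klf13, and an NR5A2-type element (TCAAGGCCA or TCAAGGTCA, either strand) in Klf17.
Klf4, chr4:55532476-55532725, minus strand: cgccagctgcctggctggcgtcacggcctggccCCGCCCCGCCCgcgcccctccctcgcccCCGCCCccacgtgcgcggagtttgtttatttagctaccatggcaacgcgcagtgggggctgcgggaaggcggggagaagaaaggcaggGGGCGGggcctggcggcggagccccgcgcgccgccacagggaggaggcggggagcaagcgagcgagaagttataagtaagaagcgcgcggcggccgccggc
Klf13, chr7:63938916-63939165, minus strand: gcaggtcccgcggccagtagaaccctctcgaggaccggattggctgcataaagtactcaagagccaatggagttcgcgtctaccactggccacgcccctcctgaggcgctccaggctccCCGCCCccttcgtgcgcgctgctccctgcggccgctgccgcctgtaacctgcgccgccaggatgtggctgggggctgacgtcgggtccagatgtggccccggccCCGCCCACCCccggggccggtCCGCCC
Klf17, chr4:117765667-117765916, minus strand: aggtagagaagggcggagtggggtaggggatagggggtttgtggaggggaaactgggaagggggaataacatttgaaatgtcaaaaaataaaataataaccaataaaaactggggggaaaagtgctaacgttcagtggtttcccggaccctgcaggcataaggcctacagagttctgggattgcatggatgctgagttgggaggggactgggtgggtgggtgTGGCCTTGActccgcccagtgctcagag
The Klf4 window held 4 GC boxes and no CACCC box, and the Klf13 window 3 GC boxes and 1 CACCC box. A GC box was in 6 and a CACCC box in 5 of the 7 member windows, and in 32.7% and 52.0% of 32851 RefSeq promoters over the same length. TCAAGGCCA occurred in the Klf17 window on the antisense strand, at positions -28 to -20 counted from the start site. The other 6 member windows, Klf4 and Klf13 among them, held no NR5A2-type element, and 0.892% of all promoters held an NR5A2-type element. These are matches of letters and not measured sites.

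Comparing Nr5a2 KD with the mean of the Rarg, Nr1h3 and Nr2c2 KD groups asks whether the change went beyond that of other siRNAs. Klf5 measured 166 and 163 FPKM after Rarg KD, 192 and 186 FPKM after Nr1h3 KD and 129.97 and 164 FPKM after Nr2c2 KD. All 6 pools lay between the NC and the Nr5a2 KD pools. Klf13 measured 3.21 and 4.62, 2.74 and 3.47 and 1.39 and 4.17 FPKM in the same order, all above the Nr5a2 KD pools. Klf5 differed by -2.21 ± 0.29 (adjusted p = 0.00206) and Klf13 by -2.005 ± 0.36 (adjusted p = 0.0106), so that 2 of 9 members were called beside 3.95% of 10163 genes.

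Klf4 was not called in that comparison. It measured 2.67 and 3.16 FPKM after Rarg KD, 1.61 and 2.62 FPKM after Nr1h3 KD and 3.42 and 4.34 FPKM after Nr2c2 KD, between NC and Nr5a2 KD, and the difference of Nr5a2 KD from their mean was -1.05 ± 0.33 (adjusted p = 0.102). Klf17 spread widely, at 124 and 59.6, 113 and 52.5 and 113 and 13.2 FPKM, with a difference of 1.27 ± 0.65 (adjusted p = 0.313). The call of Klf13 in that comparison was lost on leaving out either Nr5a2 KD pool or Nr1h3 KD replicate 2. Its log2 difference was -2.19 to -1.82 with a pool left out. The share of all genes called in these fits is not given here.

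Against NC, the other 3 single KDs gave 0 calls among 9 members each under limma. After Rarg KD 0.00984% of genes were called, and 2 of 9 members had an unadjusted p under 0.05 beside 3.76% of genes, Klf4 (-1.02 ± 0.40, p = 0.0270) and Klf5 (-0.78 ± 0.35, p = 0.0469). After Nr1h3 KD 0.00984% of genes were called, and 1 of 9 members had an unadjusted p under 0.05 beside 2.92%, Klf4 (-1.36 ± 0.40, p = 0.00564). After Nr2c2 KD 0.0787% of genes were called, and 1 of 9 members had an unadjusted p under 0.05 beside 4.19%, Klf5 (-0.96 ± 0.35, p = 0.0194). The 4 single KD comparisons share their 2 NC pools.

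The 4KD at 8C gave differences in the same 4 members in the same directions, although none was called. Klf5 measured 19.9 and 20.3 FPKM after 4KD against 71.8 and 75.6 FPKM in NC. Klf13 measured 1.23 and 1.66 FPKM against 11.7 and 18.0 FPKM, and Klf4 1.08 and 1.23 FPKM against 17.4 and 2.19 FPKM. None of these overlapped, again without a share over all genes to set beside it, and the Klf4 difference leaned on NC replicate 1. Klf17 measured 87.5 and 145 FPKM against 35.7 and 38.6 FPKM, again without overlap. A 5th member, Klf3, also stood higher without overlap, at 6.56 and 7.50 FPKM against 1.90 and 1.98 FPKM. Its limma difference was 1.45 ± 0.77 (unadjusted p = 0.0936).

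The log2 differences were -1.82 ± 0.52 for Klf5, -2.67 ± 0.68 for Klf13, -1.83 ± 0.77 for Klf4 and 1.58 ± 0.39 for Klf17, with unadjusted p of 0.00642, 0.00332, 0.0413 and 0.00294. Under limma 0 of 9 members and 0.0% of 10476 genes were called at 8C. At an unadjusted p under 0.05 were 4 of 9 members beside 7.48% of genes. With the replicate number within each stage as a block, 0 of 9 members were called at either stage, beside 1 of 10476 genes at each. At 8C the unadjusted p in that limma fit was 0.000765 for Klf17 and 0.00774 for Klf3, both higher after 4KD. Nr5a2 itself measured 3.98 and 17.6 FPKM in the 4C 4KD pools against 26.8 and 31.7 FPKM in NC, a smaller drop in one pool than in the other. At 4C, 0 of 9 members and 0.0% of genes were called, and 0 of 9 members had an unadjusted p under 0.05 beside 5.82%. Klf5 measured 16.6 and 24.0 FPKM in the 4C 4KD pools against 40.6 and 13.4 FPKM in NC, and Klf17 208 and 131 against 130.2 and 127 FPKM; the groups overlapped for Klf5 and not for Klf17. Klf13 measured 0.405 and 1.41 FPKM against 8.97 and 1.56 FPKM, a difference of -1.46 ± 0.68 (unadjusted p = 0.0604). The change of the 4KD effect from 4C to 8C was called for 0 of 9 members and 0.0% of genes, with 0 of 9 at an unadjusted p under 0.05 beside 2.47%.

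**Figure D3:**
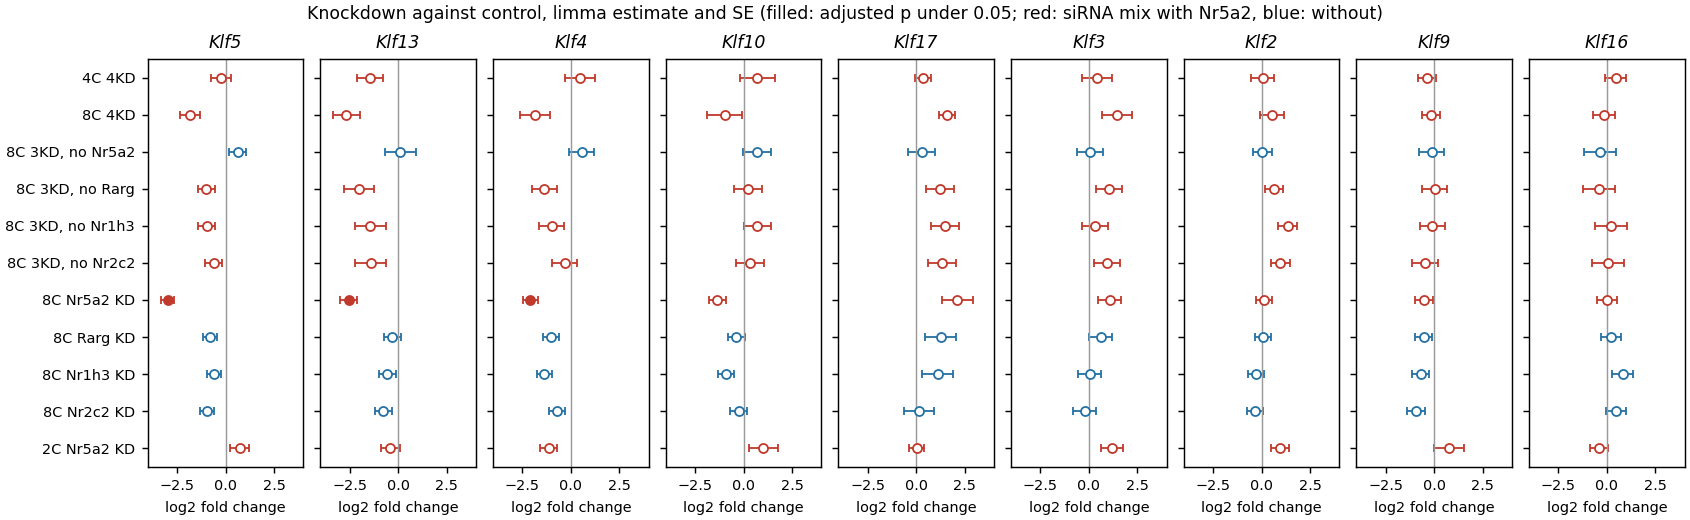
Log2 fold changes of 9 members in the KD comparisons against NC, as the limma estimate with its standard error; filled symbols mark an adjusted p under 0.05, red symbols siRNA mixes with Nr5a2 and blue symbols those without. Only Klf5, Klf13 and Klf4 after 8C Nr5a2 KD, at -2.98, -2.55 and -2.08, are filled.

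The 3KD experiment left out 1 siRNA at a time. Klf5 measured 40.1 and 30.2 FPKM in NC and 54.1 and 53.6 FPKM in the 3KD without Nr5a2 siRNA. In the 3KDs without Rarg, Nr1h3 and Nr2c2 siRNA it measured 20.2 and 14.4, 13.4 and 22.5 and 20.9 and 24.5 FPKM. The 6 pools with Nr5a2 siRNA thus all lay below the 4 without it. Klf13 measured 8.06 and 9.68 FPKM in NC, 15.5 and 5.80 FPKM without Nr5a2 siRNA, and 1.65 and 1.24, 6.22 and 0.856 and 5.59 and 1.04 FPKM in the other groups in the same order. Klf4 measured 2.19 and 4.31 FPKM in NC, 8.40 and 2.90 FPKM without Nr5a2 siRNA, and 0.314 and 0.948, 2.18 and 0.361 and 2.86 and 1.84 FPKM in the others. The 3KD without Nr5a2 siRNA overlapped the others for Klf13, where replicate 1 without Nr1h3 siRNA (6.22 FPKM) lay above its replicate 2 (5.80 FPKM), and did not for Klf4.

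The 3KD without Nr5a2 siRNA was compared with the mean of the other 3KD groups. Klf5 was higher by 1.46 ± 0.36 (adjusted p = 0.121), and under limma 0 of 9 members were called beside 0.282% of 10626 genes. At an unadjusted p under 0.05 were 4 of 9 members beside 10.1% of genes. Besides Klf5 (p = 0.00164) these were Klf13 at 1.73 ± 0.64 (p = 0.0204), Klf4 at 1.44 ± 0.53 (p = 0.0190) and Klf2 at -0.96 ± 0.40 (p = 0.0336). With the replicate number as a block, 1 of 9 members was called beside 262 of 10626 genes, Klf5 at 1.46 ± 0.30 (adjusted p = 0.0279). Over all alternatives the adjusted p of Klf5 was 0.0279 to 0.595.

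Against their shared NC pools, 0 of 9 members were called in each 3KD under limma. These fits had no replicate block. With it, again 0 of 9 members were called in each. The genes called were then 0 without Nr5a2 siRNA and 45, 35 and 65 of 10626 without Rarg, Nr1h3 and Nr2c2 siRNA. Without Nr5a2 siRNA 0.0% of genes were called, and 0 of 9 members had an unadjusted p under 0.05 beside 2.36%. Without Rarg siRNA 0.0565% of genes were called, and 2 of 9 members had an unadjusted p under 0.05 beside 6.25%, Klf13 (-2.01 ± 0.78, p = 0.0258) and Klf5 (-0.99 ± 0.43, p = 0.0442). Without Nr1h3 siRNA 0.00941% of genes were called, and 2 of 9 members had an unadjusted p under 0.05 beside 6.95%, Klf2 (1.35 ± 0.48, p = 0.0175) and Klf5 (-0.96 ± 0.43, p = 0.0487). Without Nr2c2 siRNA 0.0% of genes were called, and 0 of 9 members had an unadjusted p under 0.05 beside 7.37%. With the block, limma gave more members an unadjusted p under 0.05 in the groups with Nr5a2 siRNA. Klf13 (0.00505), Klf5 (0.0206) and Klf4 (0.0432) were lower and Klf17 (0.0312) higher without Rarg siRNA. Klf5 (0.0232) and Klf13 (0.0322) were lower and Klf2 (0.00197) and Klf17 (0.0127) higher without Nr1h3 siRNA. Klf13 (0.0324) was lower and Klf2 (0.0151) and Klf17 (0.0227) higher without Nr2c2 siRNA. The share of all genes at that p with the block is not given here.

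Klf17 split by replicate number in this experiment. It measured 128 and 29.9 FPKM in NC and 135 and 42.6 FPKM in the 3KD without Nr5a2 siRNA. The groups with Nr5a2 siRNA measured 117 and 186, 200.1 and 153 and 216 and 113 FPKM. Within replicate number 2 their log2 differences from NC were 2.60, 2.32 and 1.89, and within number 1 they were -0.13, 0.64 and 0.75. Klf2 measured 19.6 and 24.5 FPKM in NC, 21.2 and 23.7 FPKM without Nr5a2 siRNA, and 28.1 and 43.1, 37.6 and 87.6 and 37.8 and 51.2 FPKM in the groups with it, each of which lay above both NC pools.

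Over the 8C pools the ratio of Klf5 to Klf17 gives the 2 kinds of siRNA mix side by side. Klf17 was the leading member in 10 of 10 pools with Nr5a2 siRNA, with a Klf5 to Klf17 ratio of 0.0668 to 0.243 (median 0.160). Klf5 led in 12 of 14 pools without it, with a ratio of 0.314 to 12.4 (median 1.83). The ranges did not overlap. Both genes had already been seen to differ in these same pools, so the split is not a separate result, and no other pair of genes was set beside it. The 2 pools led by Klf17 were replicate 1 of the NC (0.314) and of the 3KD without Nr5a2 siRNA (0.401) in the 3KD experiment. Replicate 2 of that NC was at 1.01. In the 34 libraries labelled 2C the ratio was 0.0475 to 0.647 (median 0.169). The summed FPKM of the 10 members was 169 to 329 in pools with Nr5a2 siRNA and 127 to 448 in those without. The pools come from 3 experiments with their own NC, and the ratio was not tested across them.

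**Figure D4:**
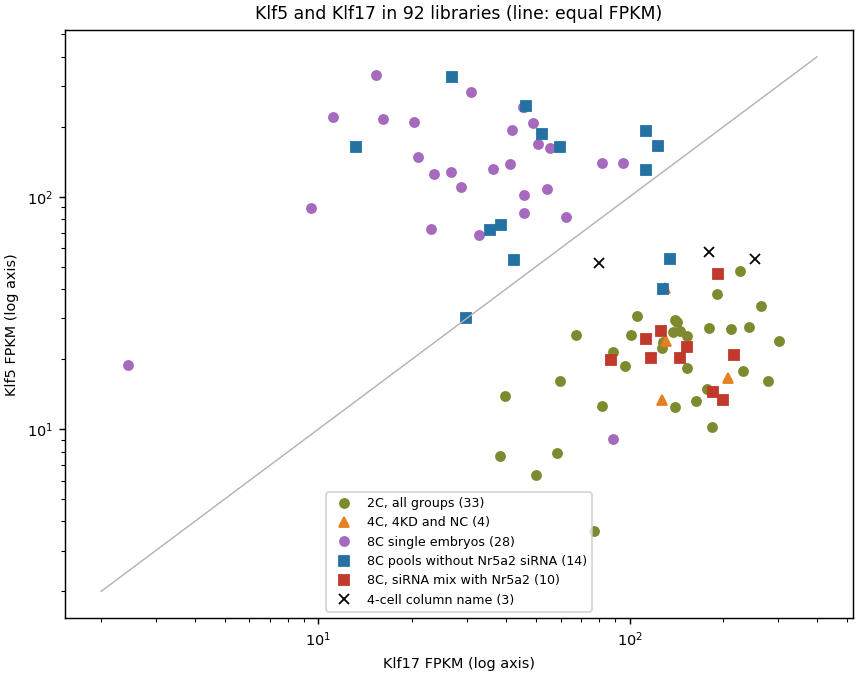
Klf5 against Klf17 FPKM in the 92 libraries, on logarithmic axes, with the line where both are equal. The 10 pools of 8C embryos with Nr5a2 siRNA (red) lie on the Klf17 side of the line with the 34 2C libraries. Of the 14 pools of 8C embryos without it (blue), 12 lie on the Klf5 side, with an NC pool of the 3KD experiment almost on the line (ratio 1.01). On that side also lie 27 of 28 single 8C embryos without a 4C column name (purple). Crosses mark the 3 libraries with a 4C column name.

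At 2C, KD of Nr5a2 went with other values. Klf5 measured 10.2 and 23.6 FPKM in NC and 27.3 and 26.2 FPKM after KD, and Klf17 184 and 128 FPKM in NC and 180.1 and 138 FPKM after KD. Klf4 measured 9.78 and 14.2 FPKM in NC and 4.59 and 5.05 FPKM after KD, without overlap, a difference of -1.14 ± 0.44 (unadjusted p = 0.0359, adjusted p = 0.890). Under limma 0 of 10 members were called beside 0.0167% of 11958 genes, and 1 of 10, Klf4, had an unadjusted p under 0.05 beside 4.67%. Klf2 measured 4.28 and 8.13 FPKM in NC and 12.3 and 12.1 FPKM after KD (0.93 ± 0.46, unadjusted p = 0.0855). The NC pools differed from each other for Klf9, at 3.15 and 21.4 FPKM, and for Klf10, at 17.5 and 2.70 FPKM. The library number of NC replicate 1 (HXY743) came from another series than those of NC replicate 2 and both KD pools (ZZQ083 to ZZQ085). Summed oocyte-deposited transcripts were 2330 and 552 FPKM in the NC pools and 1195 and 1183 FPKM after KD. The part of the library series in the 2C differences was not tested.

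In 8C base-editing embryos Klf5 ranges overlapped. Klf5 ranged from 72.4 to 242 FPKM with BE alone (median 144) and from 9.06 to 335 FPKM with sgRNA alone (median 169). With both it ranged from 18.9 to 283 FPKM (median 109), and the 18.9 FPKM was that of replicate 8. The FPKM of that library summed to 83392, the lowest of all libraries, and 5472 genes reached 1 FPKM in it. The log2 difference of Klf5 with BE + sgRNA from the mean of its controls was -0.41 ± 0.38 (95% interval -1.17 to 0.36, adjusted p = 0.765). Klf4 ranged from 2.34 to 15.6 FPKM in the 16 controls and from 1.10 to 14.7 FPKM in the 14 BE + sgRNA embryos, a difference of -0.43 ± 0.28 (95% interval -1.001 to 0.14). Klf13 had medians of 7.26 and 3.56 FPKM with BE and sgRNA alone and 6.29 FPKM with both (95% interval -0.27 to 0.80). Nr5a2 itself had medians of 47.5, 41.8 and 47.9 FPKM in the same order.

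Under limma 0 of 9 members were called in these embryos beside 0.164% of 9760 genes, and 4 of 9 had an unadjusted p under 0.05, all higher, beside 10.8%. Klf2 had medians of 11.96 FPKM with BE, 14.2 FPKM with sgRNA and 24.9 FPKM with both, a difference of 0.89 ± 0.32 (p = 0.00880). The others were Klf3 (0.75 ± 0.33, p = 0.0322), Klf9 (0.69 ± 0.29, p = 0.0234) and Klf16 (0.53 ± 0.25, p = 0.0384). Without replicates 13 and 14, whose column names gave 4C, the difference of Klf2 was 0.59 (p = 0.0443), of Klf3 0.55 (p = 0.0876), of Klf9 0.55 (p = 0.0713) and of Klf16 0.37 (p = 0.137).

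The column names also put these embryos in separate runs of library numbers, eBE and BE4. Klf2 differed by 0.55 within the first (p = 0.0828) and 0.63 within the second (p = 0.191). Klf17 ranged from 2.45 to 62.4 FPKM in the 12 BE + sgRNA embryos with an 8C column name. The 2.45 FPKM was that of replicate 8, the library with the lowest FPKM sum. In replicates 13 and 14 Klf17 measured 253 and 180.2 FPKM. Summed oocyte-deposited transcripts were 54.2 to 335 FPKM in BE + sgRNA embryos, 17.0 to 66.6 FPKM with BE and 16.3 to 143 FPKM with sgRNA, with 7 of 8 genes higher at an unadjusted p under 0.05 and 1 called; their part in the members' values was not tested.

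At 2C, 0 of 10 members were called by limma beside 0.00805% of 12420 genes, and 2 of 10 had an unadjusted p under 0.05, both higher with BE + sgRNA, beside 11.6%. Klf17 ranged from 50.0 to 302 FPKM with both (median 177), 58.3 to 227 FPKM with BE (median 123) and 38.3 to 153 FPKM with sgRNA (median 80.8), a difference of 0.84 ± 0.28 (p = 0.00466, adjusted p = 0.259). Klf16 had medians of 21.2, 17.8 and 11.6 FPKM in the same order, a difference of 0.82 ± 0.28 (p = 0.00551). Against BE alone the difference was 0.49 for Klf17 (p = 0.149), and against sgRNA alone 1.18 (p = 0.00123). Within the runs Klf17 differed by 1.03 (eBE) and 0.49 (BE4), and Klf16 by 0.44 and 0.80; the BE4 run held no sgRNA library at 2C. The change of the editing effect from 2C to 8C was called for 0 of 10 members beside 0.0385% of 12991 genes, and 1 of 10, Klf3 at 1.39 ± 0.49 (p = 0.00583, adjusted p = 0.306), had an unadjusted p under 0.05 beside 9.68%.

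**Figure D5:**
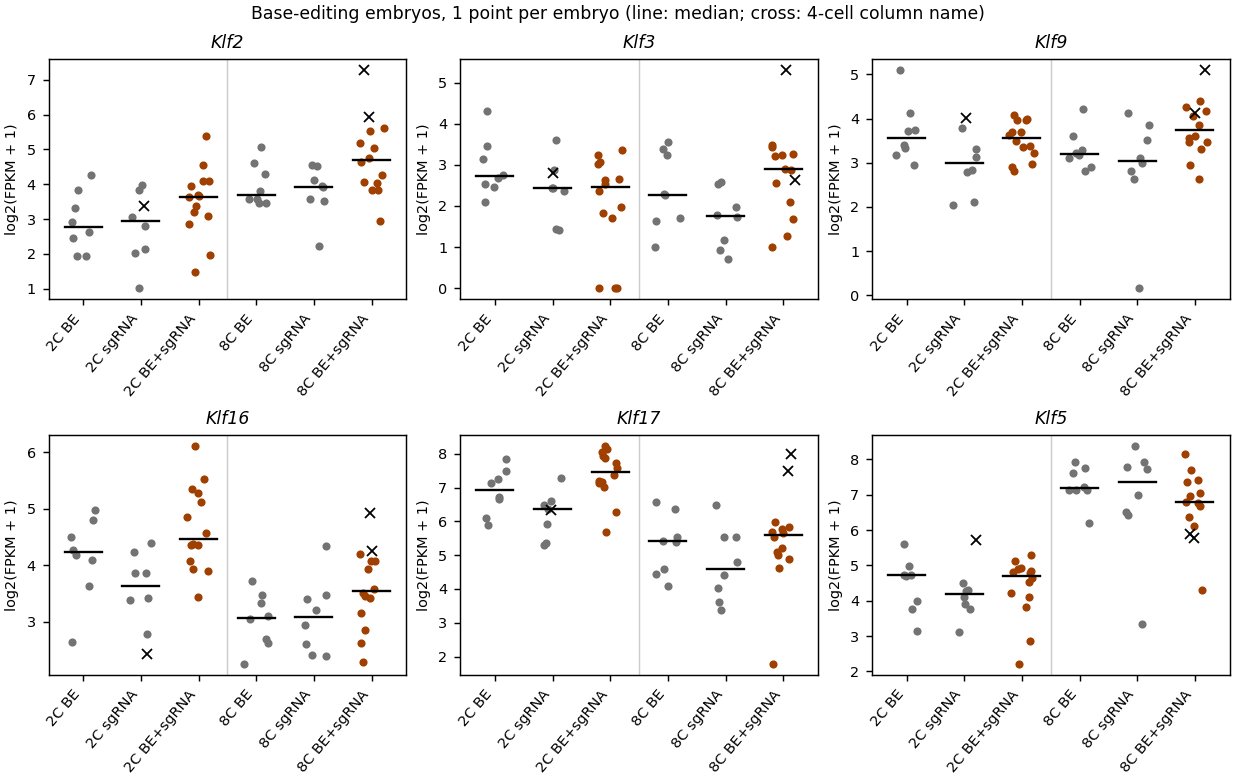
Levels of 6 members, on a log2(FPKM + 1) axis, in the 60 single embryos that received BE mRNA, sgRNA or both at 2C and 8C; points are embryos (brown for both), lines medians and crosses the libraries with a 4C column name. At 8C the Klf2 median is 24.9 FPKM with both against 11.96 and 14.2 FPKM, while the Klf5 ranges overlap.

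Of 16 other KLF and Sp genes, 6 to 11 were tested in a comparison, and none was called by limma in any KD or editing comparison, with 2 of 6 lower at an unadjusted p under 0.05 after 8C Nr5a2 KD, where 18.1% of all genes had one in either direction. From 2C to 8C, 1 rose and 7 fell of 11, beside 72.6% of all genes called. Their 3 largest changes were Klf7 (-3.32 ± 0.36, adjusted p = 5.28e-10), Klf8 (1.84 ± 0.29, adjusted p = 1.04e-06) and Sp5 (-1.17 ± 0.24, adjusted p = 6.24e-05). Of 12 partners and regulators of KLF proteins, such as the Sin3 and CtBP corepressors, 0 were called by limma in any KD or editing comparison, with 1 of 11 lower at an unadjusted p under 0.05 after 8C Nr5a2 KD, beside the same 18.1% of all genes. From 2C to 8C, 3 of 12 partners rose, led by the histone deacetylase gene Hdac1 (2.22), and 5 fell, led by the ubiquitin ligase gene Wwp1 (-1.81) and Sin3a (-1.62), again beside 72.6% of all genes called.

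Of 12 naive pluripotency genes, 3 of 11 tested fell after 8C Nr5a2 KD, the comparison in which Klf4 and Klf5 fell, beside 2.75% of all genes called. They were the Nodal co-receptor gene Tdgf1 (-3.96 ± 0.60, adjusted p = 0.00645), Nanog (-3.14 ± 0.37, adjusted p = 0.00243) and Tfcp2l1 (-2.37 ± 0.53, adjusted p = 0.0390). The median of the list was -1.43 beside -0.22 over all genes. Against the other single KDs 4 of 11 were lower, beside 3.95% of all genes called, and from 2C to 8C 9 of 12 rose and 1 fell, beside 72.6% of all genes called.

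Across the means of the 22 groups, which share stage and experiment, each member's profile was set beside those of 9180 genes, as a description. Klf5 was most like Actn4 (Pearson r = 0.949), Hk1 (0.924) and Rab10 (0.921), and Klf17 most like Rit1 (0.927), Lima1 (0.902) and Prr23a (0.895). Klf2 was most like Rbpms (0.961), Amt (0.928) and Rab5a (0.917), and Klf4 most like Smad7 (0.903), Egln1 (0.886) and Usp38 (0.852). The first genes for Klf13, Klf16 and Klf9 were Tmem120a (0.879), Pom121 (0.900) and Pim3 (0.854), and for Klf10 and Klf3 they were Ppp6r3 (0.826) and Rtbdn (0.777). Between members, r over the 22 groups was -0.792 for Klf5 and Klf17 and -0.771 for Klf2 and Klf4.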

How the data were processed

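RNA-seq libraries were made by Smart-seq2. According to the study's methods, the authors aligned paired-end reads with TopHat to mm9 and computed the deposited FPKM with Cufflinks and refFlat gene models; the submitters' processing notes also list CASAVA 1.8, Bowtie2 2.2.2, MACS 1.4.2 and bedtools 2.29.0, without roles. Of 113 samples listed, 92 had an FPKM table and entered, in 22 groups; the other 21 were not used here. Without counts, depth and counting error are unknown.

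Here log2(FPKM + 1) was fitted with limma 3.58.1 (R 4.3.3, trended variance), separately for each experiment with all its groups, over genes with a group mean of at least 1 FPKM, with Benjamini-Hochberg adjustment over all genes tested. Groups came from the labels. The 10 members were named in every comparison, and other genes where called and among the 3 with the largest change in their list; likeness used genes with a group mean of at least 5 FPKM. The members and the lists (KLF and Sp genes, partners, naive pluripotency genes, oocyte-deposited genes, embryo and cumulus markers) were chosen with earlier results of these data known. Replicate numbers were checked by correlating deviations from group means. In the 3KD experiment all 10 pairs of groups gave 0.269 to 0.500. The numbers, which also follow separate runs of library numbers, were therefore taken to pair these pools. Results given without mention of a block come from fits that left this pairing out. Alternatives were the pseudocount (0.1), the filter, scaling, the variance trend, the replicate block, left-out libraries and runs of library numbers. The fit was tested on simulated data.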

Additional observations from a re-analysis of the deposited data

Results flagged for a closer look

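In the single-embryo control groups of 8, 8 of 40 tests of a member in a group found an embryo far from the other 7 by Dixon's criterion; chance gives about 1 in 20 for normally distributed values. The FPKM values were tested without a log and all 8 lay on the high side, and that rate is not known to hold for such skewed values. Among 2C embryos with BE alone, Klf3 was at 18.7 FPKM in replicate 1 (nearest 9.94) and Klf9 at 33.2 FPKM in replicate 2 (nearest 16.4). Among 2C embryos with sgRNA alone, Klf13 was at 7.73 FPKM in replicate 6 (nearest 4.03), and Klf5 at 51.7 FPKM in replicate 8 (nearest 21.5), the library whose column name gave 4C. Among 8C embryos with BE alone, Klf6 was at 1.99 FPKM in replicate 5 (nearest 0.234) and Klf9 at 17.6 FPKM in replicate 3 (nearest 11.2). Among 8C embryos with sgRNA alone, replicate 7 stood out for Klf17 at 88.2 FPKM (nearest 45.7) and for Klf16 at 19.3 FPKM (nearest 10.2). Its Klf5 level of 9.06 FPKM was the lowest of the 16 single 8C controls, as was its FPKM sum of 207918.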

How the results depend on the processing

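Of 239 recomputed counts of called members, for 19 comparisons, 230 stayed within 1.5 times the reported count. Most of the reported counts were 0, and a 0 that stayed 0 was among the 230. The count for 8C Nr5a2 KD against NC was 1 without the filter on low values, against 3. Some or all of these calls were lost with any pool left out. Against the other single KDs the call of Klf13 was lost with some pools left out. The share of all genes called in each of these fits is not given here. Between the stages the count was 5 with library-number run in the model and without the library with a 4C column name, against 8. For the 3KD without Nr5a2 siRNA against the other 3KDs it was 1 with the replicate block, against 0, and the block changed none of the other 16 counts. Of 1250 recomputed log2 changes of members, 1213 kept their direction and their side of the threshold, 27 lost the call and 3 gained it. Most of the 1250 belonged to members that were not called and had no call to lose. All 27 lost calls came from the 3 calls of 8C Nr5a2 KD against NC, the 2 against the other single KDs and the 8 between the stages. The other 7 changed sign: Klf4 in 8C NC against 4C NC was -0.24 to 2.29 with a pool left out (lowest without 8C NC replicate 1), Klf3 in the 3KD comparison -1.49 to 0.10 (highest without replicate 1 of the 3KD lacking Nr5a2 siRNA), Klf10 in 2C KD -0.16 to 2.16 (lowest without NC replicate 2), Klf17 in 8C editing -0.11 with the replicate block and -0.32 within the BE4 run, Klf3 in 2C editing 0.066 within the eBE run, and Klf4 in the editing difference between stages 0.0090 without the 4C column names and 8C libraries with an FPKM sum under 250000, a setting chosen after seeing the data. The cause was not tested.

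Replicate numbers paired pools within each 4KD stage (r = 0.321 and 0.336) and not across stages (-0.286 to -0.259); crossing them, a choice made after seeing the data, called 0 members. In the single KDs r was -0.0382 to 0.138 and at 2C 0.0045, so the numbers were not taken to pair those pools. With 2 pools a group and unknown depth, changes of members under a few FPKM rest on few fragments, and a missed threshold does not show that levels were alike.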
